A study of Rattus norvegicus with 6 samples.

Results

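The intercalated cell proton pump, the anion exchangers of these cells and their Rhesus ammonia transporters were followed in rat kidney. The 10 genes Atp6v1a, Atp6v1b1, Atp6v1c2, Atp6v1g3, Atp6v0a4, Atp6v0d2, Slc4a1, Slc26a4, Rhcg and Rhbg were looked up by platform gene symbol among the array's probe sets, and 8 of them were found, with 11 probe sets in all, of 14218 symbols on 20832 probe sets. Atp6v0d2 and Rhbg had no probe set by symbol or by gene ID and were not analysed here. Each of the 6 arrays carried kidney RNA pooled from 2 male rats aged 53 days. The congenic strain, which carries a segment of chromosome 9 of the R strain in the Dahl S background, gave 3 pools, and the Dahl salt-sensitive (S) strain gave 3. Rats of both strains shared a birth date, were weaned at 30 days onto a chow with 2% salt, and lived in mixed cages, with 1 rat of each strain per cage. Whole kidney was used, so fewer intercalated cells and less RNA per cell cannot be told apart, and the congenic rats differ from S by a segment rather than by 1 known allele. In the rat assembly GRCr8 none of the 10 genes lies on chromosome 9.

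Intercalated cells are scattered among the principal cells of the connecting tubule and collecting duct, where they set the final acidity of the urine. Type A cells secrete acid: a vacuolar proton pump in the apical membrane drives protons into the lumen, and the basolateral exchanger AE1 (Slc4a1) returns bicarbonate to the blood. Type B cells have the reverse polarity and secrete bicarbonate through apical pendrin (Slc26a4), which takes up chloride in exchange and is thereby tied to salt balance and blood pressure. The pump has a cytosolic V1 sector that splits ATP and a membrane V0 sector that conducts protons, and several of its subunits exist as isoforms that intercalated cells use in preference to the housekeeping ones.

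No gene of the group passed the test for a strain difference. The deposited values were MAS5 signals, a linear measure of each probe set's brightness, and strains were compared as log2(signal + 16) with limma, adjusted by Benjamini-Hochberg over 18625 probe sets. All 11 probe sets were bright enough to be tested. Of them 0 had an adjusted p under 0.05, and over all tested probe sets the share was 0% (0 called, smallest adjusted p 0.164). At an unadjusted p under 0.05 there was 1 of the 11, Atp6v1c2, against 6.61% of all tested probe sets, and it was also the 1 probe set whose groups did not overlap, against 12.5% of all (5.74% higher and 6.79% lower in congenic pools). The log2 fold change, congenic over S, was above 0 for 7 probe sets, against 48.8% of all, and below 0 for 4. Its median was 0.051 over the 11 and -0.0034 over all tested probe sets. The 95% intervals of the 11 lay between 0.740-fold and 1.36-fold, and 0 of them reached a 1.5-fold difference in either direction, on the scale of signal + 16, which understates fold changes of dim probe sets. The p-values measure the spread between pools of different rats.

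**Figure D1:**
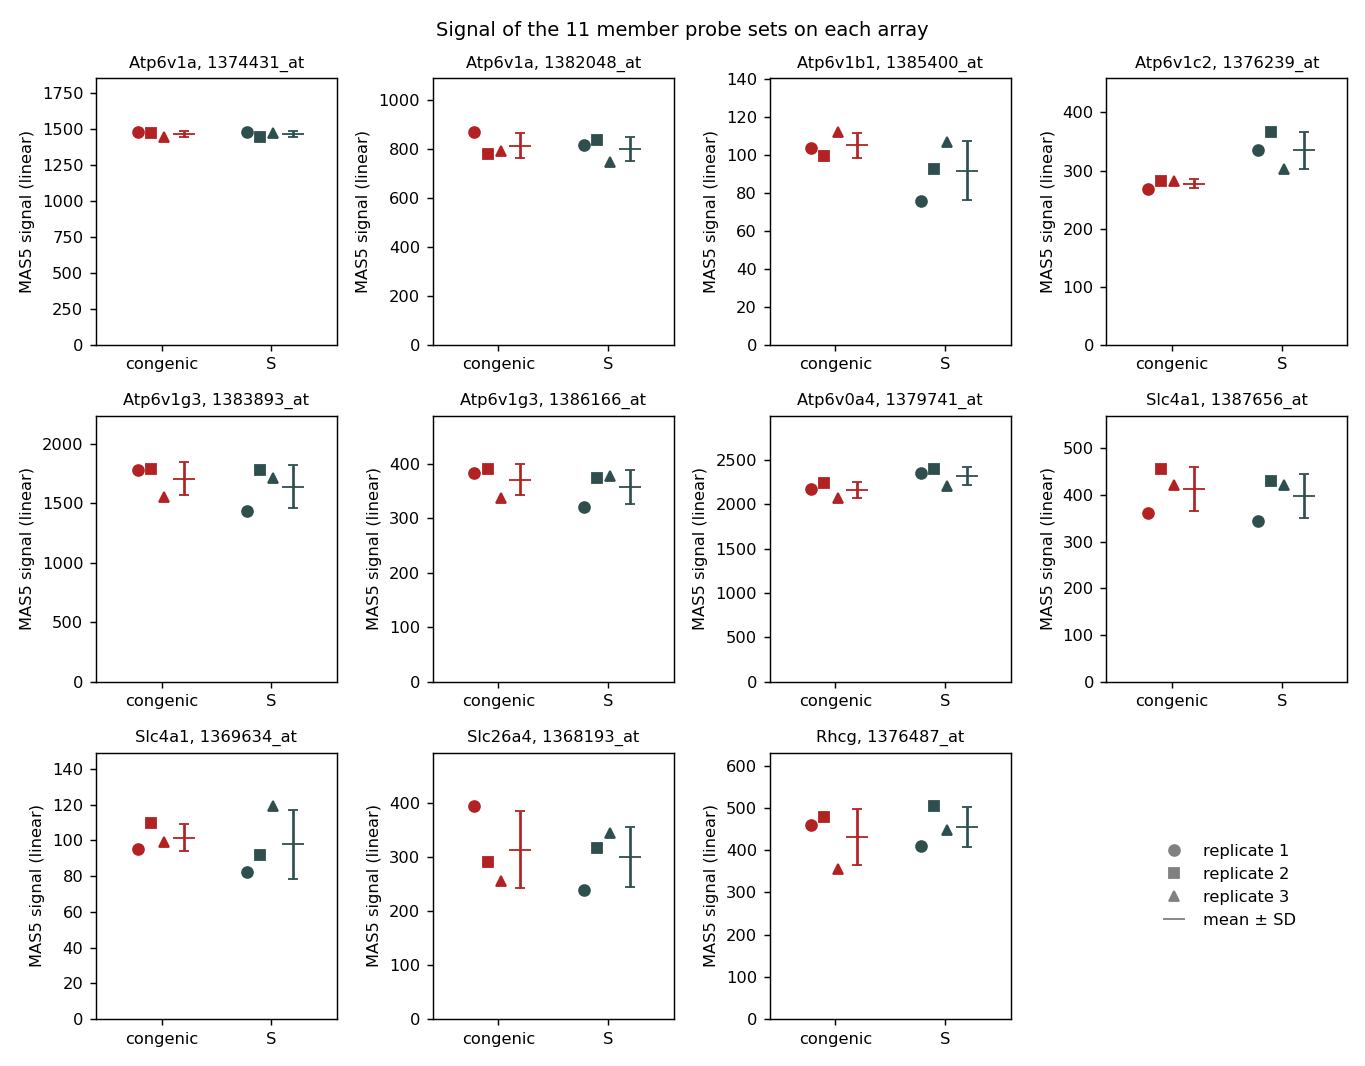
MAS5 signal (linear axis from 0) of the 11 member probe sets, congenic arrays left in red and S arrays right in dark grey, 1 symbol per replicate and bars for mean ± SD (n = 3 each). The 3 congenic and 3 S arrays overlap in 10 panels, and in that of Atp6v1c2 they do not.

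The arrays resembled each other over all probe sets, with Spearman correlations of 0.969 to 0.977 and median signals of 42.9 to 46.0. Congenic replicate 1 held liver transcripts, with 6683 for albumin (Alb) against 19.3 to 56.7 on the other 5 arrays, and congenic replicate 3 held adrenal transcripts, with 1598 for Cyp11a1 against 40.9 to 48.2. The actin ratio, the signal at the 3' end of the transcript over that at its 5' end and a sign of RNA degradation when high, was 6.15, 6.64 and 7.17 on the congenic arrays and 9.42, 8.13 and 6.54 on the S arrays. Kidney markers were bright: the thick ascending limb gene Umod averaged 6825 in congenic and 6699 in S pools, and the principal cell water channel Aqp2 3198 in congenic and 2722 in S pools.

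Of the V1 sector, Atp6v1c2, a kidney- and lung-enriched isoform of subunit C, differed most. Its signal was 269, 281 and 283 on the congenic arrays and 335, 367 and 302 on the S arrays. Every congenic array thus read below every S array, although the gap between the highest congenic and the lowest S array was small. The means were 278 ± 7.55 in congenic and 335 ± 32.3 in S pools (SD, n = 3 each), and the log2 fold change was -0.25 (SE 0.082, limma adjusted p = 0.721). By its unadjusted p, 0.0113, it ranked 291 among the 18625 tested probe sets. Without S replicate 2, the array with its highest signal, the log2 fold change was -0.19 and the unadjusted p 0.0583, so that 0 of the 11 members were under 0.05, against 4.81% of all tested probe sets. Without S replicate 3 it was -0.32, and 3 members were under 0.05, the others being Atp6v1b1 and Atp6v0a4, while the share of all tested probe sets was 9.17%.

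Atp6v1b1 encodes the intercalated cell isoform of the catalytic hexamer's B subunit, and its loss in humans causes distal renal tubular acidosis with deafness. Its signal was 103, 99.3 and 112 on the congenic arrays and 75.8, 92.2 and 107 on the S arrays. The highest S array lay among the congenic ones, and S replicate 1 was the lowest of the 6. The log2 fold change was 0.18 (SE 0.12, 95% interval -0.086 to 0.44, limma adjusted p = 0.805). It was 0.067 without S replicate 1, where the limma unadjusted p was 0.546, and 0.28 without S replicate 3, where it was 0.0408. In the latter fit 9.17% of all tested probe sets were under 0.05.

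The upstream sequences of Atp6v1b1 and Atp6v1c2 are shown because these 2 genes had the largest positive and negative log2 fold changes of the group. Both are the 250 bases before the start of 1 RefSeq transcript in GRCr8, read on the gene's strand. For Atp6v1c2 that start lies inside the annotated gene (chr6:45809269-45872914), so the sequence shown is not upstream of the whole gene. The starts used for Atp6v1a, Atp6v1g3, Slc26a4 and Rhcg, searched but not shown, also lie inside their annotated genes. Capitals mark the forkhead core TGTTTAC, which was searched on both strands because the forkhead factor Foxi1 is required in mice for intercalated cells to express their pump and exchangers. An upstream sequence was at hand for 8 of the 10 genes, all but Slc4a1 and Atp6v0d2, and 1 of these 8 held the core, Atp6v1b1, where it began 93 bases before the start. Over 33465 rat upstream sequences of the same length, 3.22% held it. A match is a description of these letters and not a site.
Atp6v1b1, chr4:117781194-117781443, plus strand: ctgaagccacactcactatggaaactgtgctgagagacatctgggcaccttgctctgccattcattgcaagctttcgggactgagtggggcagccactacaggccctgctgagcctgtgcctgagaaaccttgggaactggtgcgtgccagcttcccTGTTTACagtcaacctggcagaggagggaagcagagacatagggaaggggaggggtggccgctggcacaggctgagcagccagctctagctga
Atp6v1c2, chr6:45848748-45848997, minus strand: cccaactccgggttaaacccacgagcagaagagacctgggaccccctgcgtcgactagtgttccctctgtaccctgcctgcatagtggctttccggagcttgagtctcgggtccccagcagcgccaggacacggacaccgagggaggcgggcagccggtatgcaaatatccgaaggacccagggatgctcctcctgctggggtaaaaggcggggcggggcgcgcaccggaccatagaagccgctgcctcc

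Atp6v1a, the catalytic A subunit that other cells of the body use as well, had 2 probe sets. The brighter one (1374431_at) read 1484, 1474 and 1447 on the congenic arrays and 1482, 1447 and 1475 on the S arrays, with a mean of 1468 ± 19.1 in congenic and 1468 ± 18.2 in S pools (SD, n = 3 each). The groups covered the same range, and the 95% interval of the log2 fold change, -0.11 to 0.11, was the narrowest of the group. The second probe set (1382048_at) read 871, 778 and 793 on the congenic arrays and 818, 836 and 746 on the S arrays, a log2 fold change of 0.024 (95% interval -0.13 to 0.18, limma adjusted p = 0.959).

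Atp6v1g3 encodes the kidney isoform of the stalk subunit G and is largely limited to intercalated cells. Its brighter probe set (1383893_at) read 1780, 1789 and 1548 on the congenic arrays and 1432, 1780 and 1708 on the S arrays. S replicate 1 and congenic replicate 3 were the low arrays, and the groups overlapped. The dimmer probe set (1386166_at) read 384, 391 and 338 on the congenic arrays and 321, 373 and 377 on the S arrays, so the same 2 arrays were low on a separate probe set of the gene. The log2 fold changes were 0.059 (95% interval -0.13 to 0.25) and 0.053 (-0.14 to 0.24), with limma adjusted p-values of 0.911 and 0.921. Without S replicate 1 they were -0.035 and -0.019.

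Of the V0 sector, Atp6v0a4 was measured. It encodes the kidney isoform of the large membrane subunit a, which conducts protons, and its loss also causes distal renal tubular acidosis in humans. Its signal was 2174, 2244 and 2065 on the congenic arrays and 2347, 2399 and 2206 on the S arrays. Congenic replicate 2 and S replicate 3 overlapped narrowly, and the other congenic arrays lay below all S arrays. The means were 2161 ± 90.1 in congenic and 2317 ± 100.1 in S pools (SD, n = 3 each), and the log2 fold change was -0.10 (SE 0.055, 95% interval -0.22 to 0.021, limma adjusted p = 0.785). With S replicate 3, the S array that overlapped the congenic ones, left out, the limma unadjusted p was 0.0390. In that fit 9.17% of all tested probe sets were under 0.05. Without S replicate 1 the unadjusted p of Atp6v0a4 was 0.173.

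**Figure D2:**
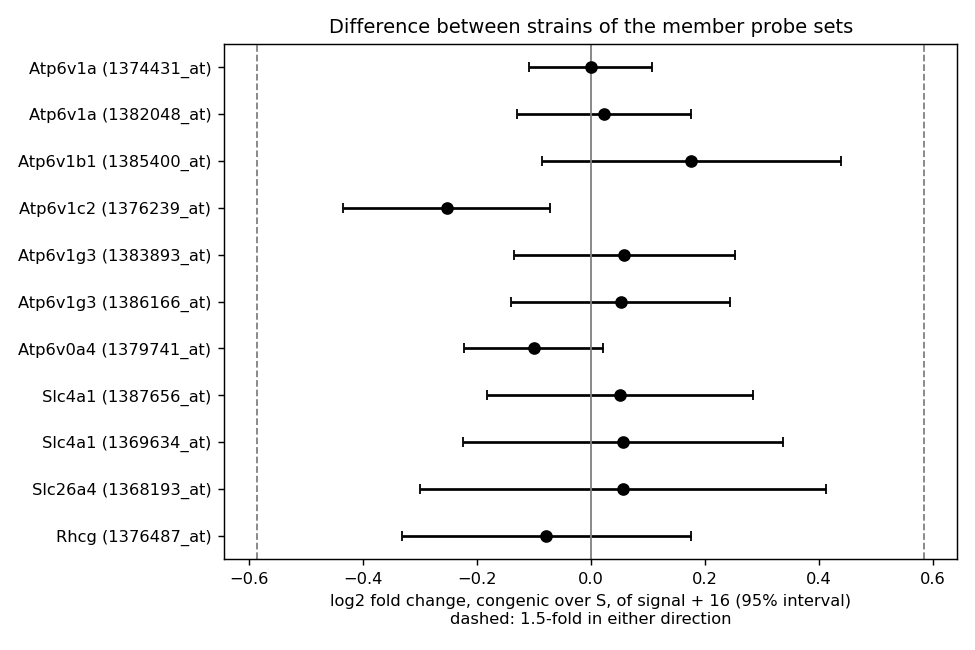
Log2 fold change, congenic over S, of signal + 16 with its 95% interval from limma, for each member probe set (n = 3 arrays per strain). The interval of Atp6v1c2 leaves out 0, the other 10 hold it, and none reaches the dashed lines at 1.5-fold.

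Slc4a1, the type A exchanger, had 2 probe sets. The brighter one (1387656_at) read 362, 456 and 422 on the congenic arrays and 344, 430 and 421 on the S arrays, and the groups covered nearly the same range. The dimmer one (1369634_at) read 95.1, 110 and 99.4 on the congenic arrays and 82.1, 92.1 and 119 on the S arrays. On both probe sets S replicate 1 was the lowest array. The log2 fold changes were 0.051 (95% interval -0.18 to 0.28, limma adjusted p = 0.939) and 0.057 (-0.22 to 0.34, adjusted p = 0.945). Without S replicate 1 they were -0.046 and -0.044.

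AE1 is also the main membrane protein of red blood cells, and immature red cells carry its RNA. Of 12 red cell genes 7 had a probe set and 3 were tested: the log2 fold change was 0.090 for the globin Hbb, 0.0021 for the heme synthesis enzyme Alas2 and -0.32 for the globin chaperone Ahsp, none at an unadjusted p under 0.05. The summed signal of these 3 ran from 7783 to 8444 on the congenic and from 7168 to 8071 on the S arrays, mostly Hbb. Alas2 read 282, 499 and 376 on the congenic arrays and 334, 337 and 467 on the S arrays. Within the congenic group it was lowest and highest on the same arrays as Slc4a1. Within the S group Alas2 and both Slc4a1 probe sets were lowest on replicate 1. Alas2 and the dimmer Slc4a1 probe set were highest there on replicate 3, but the brighter one was highest on replicate 2. The part of red cells in the Slc4a1 signal was not tested, and the kidney and red cell transcripts of Slc4a1 were not told apart.

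Slc26a4, the type B exchanger pendrin, had the largest standard error of the log2 fold change among the members. Its signal was 394, 290 and 256 on the congenic arrays and 238, 316 and 344 on the S arrays. The highest of the 6 was congenic replicate 1 and the lowest S replicate 1. Of the other arrays, the congenic ones (290 and 256) read below the S ones (316 and 344). The means were 313 ± 71.9 in congenic and 299 ± 55.1 in S pools (SD, n = 3 each), and the log2 fold change was 0.057 (SE 0.16, 95% interval -0.30 to 0.41, limma adjusted p = 0.958). That interval was the widest of the group. The direction turned with 1 array: the log2 fold change was -0.11 without congenic replicate 1, where liver transcripts were found, and -0.092 without S replicate 1.

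Set side by side, the type A and type B exchangers had nearly equal log2 fold changes, with intervals that each held 0. On single arrays they could part. As log2 deviations from the mean of the 6 arrays, Slc26a4 minus the mean of the 2 Slc4a1 probe sets was 0.47, -0.21 and -0.26 on the congenic arrays and -0.10, 0.064 and 0.033 on the S arrays. Congenic replicate 1 stood highest and the other congenic arrays lowest, with all S arrays between them, so that the difference did not separate the strains.

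Rhcg, an ammonia channel of the apical and basolateral membranes of intercalated and principal cells, was the measured member of the Rhesus pair. Its signal was 459, 480 and 356 on the congenic arrays and 410, 505 and 449 on the S arrays. Congenic replicate 3, the array with adrenal transcripts, was the lowest, and the rest overlapped. The log2 fold change was -0.078 (SE 0.11, 95% interval -0.33 to 0.18, limma adjusted p = 0.910), and without congenic replicate 3 it was 0.050. The urothelium of the renal pelvis is a neighbouring epithelium, and its markers are given with those of other tissues.

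Across members the low array was often the same. S replicate 1 was the lowest of the 6 arrays for 6 of the 11 probe sets: Atp6v1b1, both of Atp6v1g3, both of Slc4a1 and Slc26a4. Over all tested probe sets it was the lowest for 22.0%. It was also the array with the highest actin ratio, 9.42, and whether RNA integrity took part in the low values was not tested. Its median deviation over the 11 probe sets was -0.17 on the log2 scale, against -0.099 on congenic replicate 3 and 0.022 to 0.062 on the other 4 arrays. The highest of these, 0.062, was on S replicate 2, which had the second highest actin ratio, 8.13. Congenic replicate 3 had a ratio of 7.17. Without S replicate 1 the median log2 fold change of the 11 was -0.044, and 6 of the 11 turned sign. The turned ones were both probe sets of Atp6v1g3, both of Slc4a1, that of Slc26a4 and the brighter one of Atp6v1a, whose value was near 0 in either fit. The probe sets of Atp6v1a, Atp6v1c2, Atp6v0a4 and Rhcg were not lowest on S replicate 1. Low values on that array were not particular to the members. Of the lists given below, the summed signals of the other pump subunits and of the principal cell genes were also lowest there. The principal cell sum was 6096 there, 6305 and 6859 on the other S arrays and 6765 to 7848 on the congenic arrays. Sums of other intercalated cell genes were lowest on congenic replicate 2 (both types) and on S replicate 2 (type A).

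**Figure D3:**
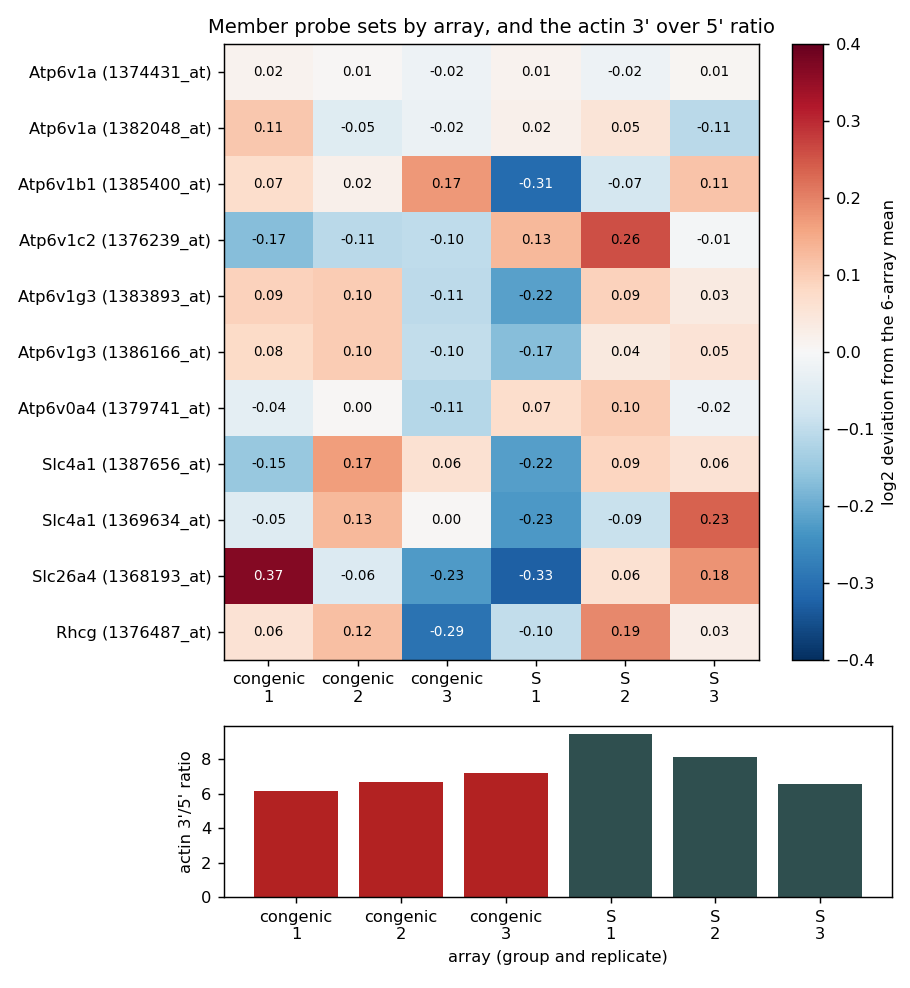
Above, log2(signal + 16) of each member probe set (rows) on each array (columns, congenic left of S) as the deviation from its mean over the 6 arrays, red for higher and blue for lower. Below, the actin 3' over 5' signal ratio of the same arrays, where S replicate 1 has the highest ratio, 9.42, and it is the lowest array in 6 of the 11 rows.

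The remaining pump subunits, most of them shared by all cells for acidifying lysosomes and endosomes, were taken at 1 probe set per gene, the one with the highest mean. Of 19 genes 18 had a probe set and 17 were tested. Of these 12 had a log2 fold change above 0, and the median was 0.044, with a range of -0.075 to 0.23. The summed signal of the 18 was 15587 on S replicate 1, 16425 and 16436 on the other S arrays and 16421 to 16626 on the congenic arrays. The part of S replicate 1 in the direction of this list was not tested. By limma 0 passed the adjusted threshold, 1 was higher and 0 were lower at an unadjusted p under 0.05, where 3.09% of all tested probe sets were higher and 3.53% lower. The one was Atp6v0b, a proteolipid of the proton-conducting ring, with 539, 603 and 579 on the congenic arrays and 446, 509 and 511 on the S arrays. All congenic arrays read above all S arrays, and the log2 fold change was 0.23 ± 0.075 (SE), with a limma adjusted p of 0.730. Without S replicate 1 the log2 fold change of Atp6v0b was 0.16. Of the 17 tested genes, 3 had groups that did not overlap and were higher in congenic pools, Atp6v0b and Atp6v0d1 among them. In the other direction there was 1. Over all tested probe sets these shares were 5.74% and 6.79%. A second, dimmer probe set of Atp6v0b read 58.6, 96.3 and 87.4 on the congenic arrays and 58.3, 83.8 and 76.6 on the S arrays, where the groups overlapped. Atp6v0d1, the ubiquitous counterpart of the unmeasured Atp6v0d2, had the second smallest p of the list, with a log2 fold change of 0.080 (adjusted p = 0.796).

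Other genes known from intercalated cells, or whose products bind the pump there, numbered 20, of which 14 had a probe set and 10 were tested. Of these 8 had a log2 fold change above 0, with a median of 0.071, and 0 passed the adjusted threshold. At an unadjusted p under 0.05, 0 were higher and 1 was lower, Oxr1, whose TLDc domain binds the pump. Of all tested probe sets 3.09% were higher and 3.53% lower at that threshold, and 6.79% were lower with no overlap between groups. Oxr1 read 859, 891 and 986 on the congenic arrays and 1103, 1024 and 1018 on the S arrays, with no overlap, a log2 fold change of -0.20 and a limma adjusted p of 0.735. Foxi1 read 462, 452 and 397 on the congenic arrays and 340, 409 and 392 on the S arrays. The lowest congenic array lay within the S range, and the log2 fold change was 0.19 (SE 0.088, 95% interval -0.0018 to 0.39, limma adjusted p = 0.758). Without S replicate 1 the log2 fold change of Foxi1 was 0.12.

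By cell type, the 7 tested genes of both types had a median of 0.075, and the cytosolic carbonic anhydrase Car2, which supplies the protons and bicarbonate, had a log2 fold change of 0.067. The 3 tested type A genes had a median of 0.020, between -0.036 for Adgrf5 and 0.19 for the vasopressin receptor Avpr1a. Adgrf5 lies on chromosome 9, and its value turned to 0.0021 without congenic replicate 1. Of the 4 type B genes 1 had a probe set, the insulin receptor-related receptor Insrr, which was too dim to be tested, so that type B cells were represented by Slc26a4. Of the potassium pumps of these cells, Atp12a was tested, with a log2 fold change of 0.19 and a limma adjusted p of 0.828. Its mean signal, 31.1, and that of Avpr1a, 35.2, were near 25.6, the signal below which probe sets were not tested.

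**Figure D4:**
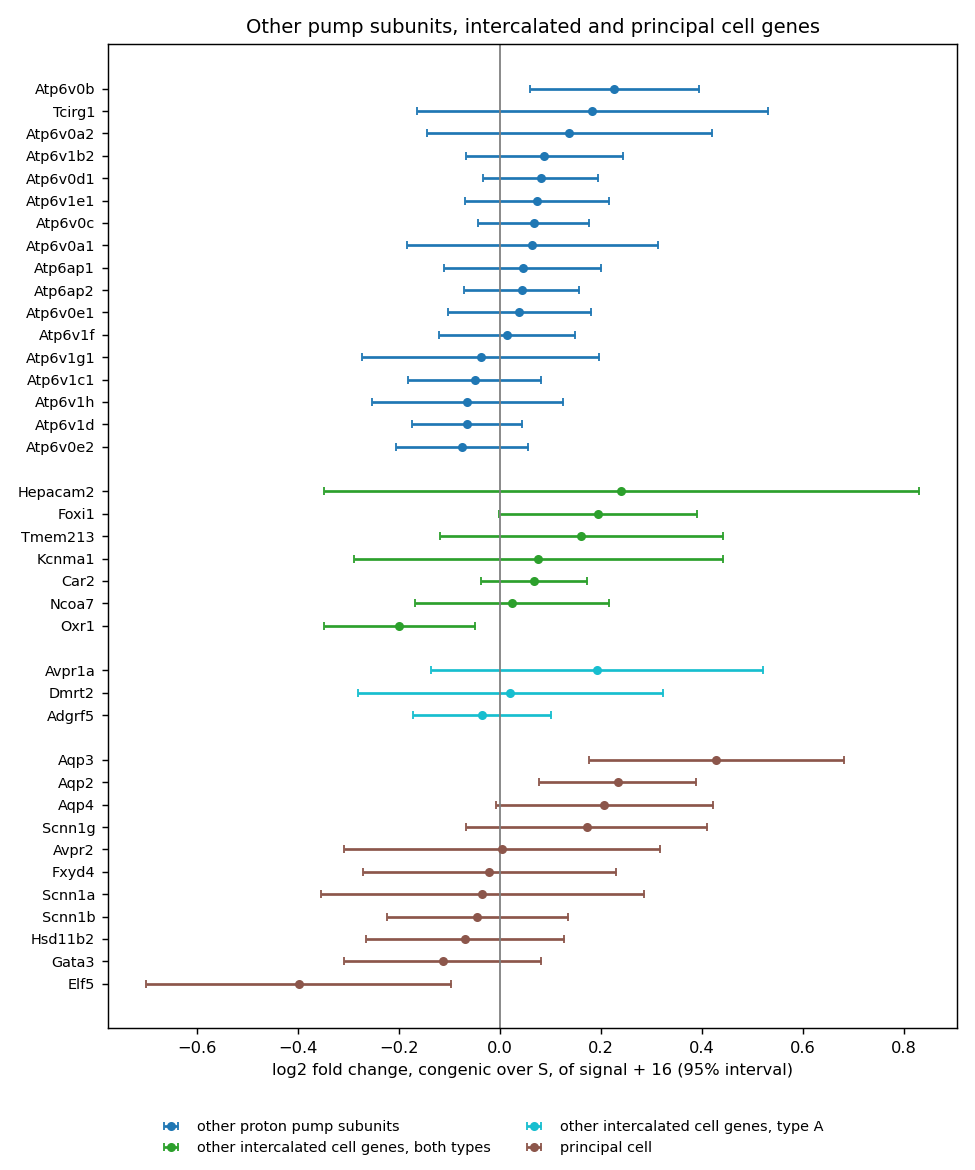
Log2 fold change, congenic over S, of signal + 16 with its 95% interval from limma for other pump subunits, intercalated cell genes and principal cell genes, at 1 probe set per gene. The intervals of Atp6v0b, Aqp3 and Aqp2 lie above 0 and those of Oxr1 and Elf5 below 0, and none of these genes passed the adjusted threshold.

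Principal cells, the neighbours of intercalated cells, were split. Of 11 tested genes 5 had a log2 fold change above 0, and the median was -0.021. At an unadjusted p under 0.05 there were 2 higher and 1 lower, against 3.09% and 3.53% of all tested probe sets. The same counts, 2 and 1, held for groups that did not overlap, against 5.74% higher and 6.79% lower of all. The water channels Aqp3 and Aqp2 were higher on every congenic array than on every S array, with log2 fold changes of 0.43 and 0.23 (limma adjusted p = 0.710 for each). Elf5, a transcription factor of the principal cell lineage, read 28.6, 41.5 and 42.5 on the congenic arrays and 53.8, 54.7 and 53.4 on the S arrays, a log2 fold change of -0.40 (adjusted p = 0.735). The difference between principal and intercalated cell genes was not tested.

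Markers of other tissues were also read. All 5 tested urothelial genes had a log2 fold change below 0, with a median of -0.29 and a summed signal of 403 to 477 on the congenic and 496 to 556 on the S arrays, and their part in the values of the members was not tested. Macrophage and osteoclast genes, 5 tested, had a median of -0.11 and summed to 841 to 908 on the congenic and 892 to 909 on the S arrays. Proximal tubule genes, 7 tested, had a median of -0.051, and those of the segments from thick ascending limb to distal convoluted tubule, 5 tested, had one of 0.026. The 6 liver genes summed to 9413 on congenic replicate 1 and to 105 to 196 on the others, and the 5 adrenal genes to 5506 on congenic replicate 3 and to 128 to 142 on the others.

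The transcripts whose profile over the 6 arrays came closest to each exchanger were sought by the root mean square difference of standardised log2 values. Closest to Slc4a1 (1387656_at) were Rbm8a at 0.147, Josd2 at 0.148 and Armcx6 at 0.167. Closest to Slc26a4 were Map7 at 0.108, Gpbp1 at 0.128 and Jpt1 at 0.174. With 6 arrays such nearness is common: 294 named probe sets lay within 0.5 of Slc4a1 and 268 within 0.5 of Slc26a4.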

How the data were processed

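Kidney RNA of 6 pools, 3 congenic and 3 S, was measured on 1 Affymetrix rat expression array each, and arrays were grouped by their titles in the labels. The authors deposited linear intensity values, MAS5 signals for each probe set, per the submitters' processing notes, which name no version. The scaling target and detection calls were not used here. Since the arrays come scaled, a shift of most transcripts could not be seen.

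Of 31099 probe sets, 57 controls and 12417 with a mean over all arrays below the 40th percentile (a signal of 25.6) were left out. Log2(signal + 16) of the other 18625 went into limma 3.58.1, run in R 4.3.3 (lmFit, eBayes with trend, 2-sided, Benjamini-Hochberg), congenic over S. The fit was tested on simulated data. The smallest p that an exact permutation test could give at 3 arrays per strain is 0.1, so none was used. Precision is limited by the number of arrays, with a median SE of 0.10 over all tested probe sets. Symbols came from the platform annotation, where 20832 probe sets had 1 symbol and 436 several, updated through gene IDs to RefSeq (GRCr8), which also gave the upstream sequences.

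The text names all member probe sets and, of the pump, intercalated cell, potassium pump and principal cell lists, the 2 genes with the smallest p and any under 0.05; Car2, Insrr and the tissue markers were added for context after their values were seen. The members and lists were chosen with earlier results of these data known. Alternatives were other pseudocounts (1 and 64), filters, normalizations and variance priors, the replicate number as a block, and arrays left out.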

Additional observations from a re-analysis of the deposited data

How the results depend on the processing

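Of the 165 values of member probe sets under the alternatives, 148 kept their direction and none passed the adjusted threshold. The filters, the variance prior and the replicate block leave the log2 fold change unchanged, so their values could not turn. All 17 that turned came from fits with arrays left out, and they belong to values close to 0. With each array left out in turn, the brighter Atp6v1a probe set ranged from -0.010 to 0.010 and the dimmer from -0.024 to 0.056. Over the same fits Atp6v1g3 ranged from -0.035 to 0.13 (1383893_at) and -0.019 to 0.12 (1386166_at), Slc4a1 from -0.046 to 0.14 (1387656_at) and -0.044 to 0.19 (1369634_at), Slc26a4 from -0.11 to 0.18, Rhcg from -0.16 to 0.050 and Adgrf5 from -0.079 to 0.0021. Against congenic array 2 alone, which leaves out the arrays with liver and adrenal transcripts and assumes that the lone array varies like the S arrays, Atp6v1a was at 0.0055 and -0.038, Slc26a4 at -0.028, Rhcg at 0.081, Adgrf5 at 0.051 and Atp6v1c2 at -0.23, 782 probe sets had an unadjusted p under 0.05, against 1232 in the chosen fit, and of the members 0 did, since fewer samples widen the error. The count of members with an unadjusted p under 0.05 ranged from 0 to 3 with each array left out. That of all probe sets under 0.05 ranged from 895 to 1708, against 1232 in the chosen fit. The number of adjusted calls ranged from 0 to 1, the one being without congenic replicate 2. The count of other intercalated cell genes ranged from 0 to 3 with arrays left out and was 2 with no filter and 2 with median centring. In each of the latter fits 5.92% of all tested probe sets were under 0.05. With no filter the dim genes of these lists were tested as well. With median centring the gene added was Foxi1, at a limma unadjusted p of 0.0481, against 0.0518 in the chosen fit. The count of other pump subunits ranged from 0 to 2. What moved the counts with arrays left out was not tested. Atp6v1b1, Atp6v1c2 and Atp6v0a4 kept their direction in all alternatives run, between 0.067 and 0.28, -0.32 and -0.19, and -0.14 and -0.045.

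Same-numbered congenic and S arrays had correlated deviations of 0.037, 0.014 and 0.021, so the numbers were not taken to pair the pools, and congenic replicate 2 correlated better with S replicate 3, at 0.038. With the replicate block, 1 member, Atp6v1c2, was under an unadjusted 0.05, 1293 probe sets were, and the members' median stayed at 0.051.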
